A study of Arabidopsis thaliana with 11 samples.

Results

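The 10 genes described here are known from leaf senescence and from the response of plants to darkness: ORE1, NAP, SAG12, SAG13, SAG14, NYE1, PAO, ASN1, SEN1 and DIN10. They were chosen as a group from general knowledge of these responses after RNA-seq results of the same libraries had been seen, so their own levels are given as a description and without a test. Of the 10 genes, 9 had a row among the 20971 genes of the expression table, and SAG12 was not analysed here. All 9 passed the filter on low values (at least 1 FPKM in at least 2 libraries), which 19278 genes passed, but SAG13 passed it only through the day 8 libraries.

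The tissue sequenced was the inflorescence of Arabidopsis thaliana plants of the Landsberg ecotype. All plants, the uninduced ones included, carried the pAP1:AP1-GR transgene, in which the floral regulator APETALA1 is fused to the glucocorticoid receptor and driven by the AP1 promoter, in the ap1-1 cal-1 double mutant background. These plants form masses of inflorescence-like meristems until dexamethasone (DEX) moves the fusion protein into the nucleus, after which flowers form in synchrony. The main inflorescence received DEX daily, and tissue was taken before treatment (day 0, 3 libraries), at day 2 (2 libraries), at day 4 (3 libraries) and at day 8 (3 libraries). Each library was a pool of inflorescences, and plants grew in days of 16 h light and 8 h dark, with all harvests at the same hour of the light period per the methods of the study. Days of DEX, plant age and flower stage advanced together and no untreated plants were taken at the later days, so their contributions cannot be told apart. In such whole-tissue samples, more RNA per cell and more cells of a type cannot be told apart either.

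Leaf senescence is an ordered dismantling of the cell in which chlorophyll is degraded and nitrogen and sugars are exported to growing organs. NAC transcription factors stand at the head of the programme: ORE1 (also ANAC092) is an activator of age-dependent cell death, and NAP drives senescence and chlorophyll loss. SAG12, SAG13 and SAG14 were isolated as senescence-associated genes and encode a cysteine protease, a short-chain dehydrogenase and a blue copper-binding protein. NYE1, also called STAY-GREEN, removes magnesium from chlorophyll, and PAO (pheophorbide a oxygenase) opens the chlorophyll ring. ASN1 (also DIN6, glutamine-dependent asparagine synthetase), SEN1 (also DIN1) and DIN10 (a raffinose synthase family protein) are dark-inducible genes that sugar represses and that respond to the energy-sensing kinase SnRK1.

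The members lie on all 5 chromosomes, and 2 of them are near neighbours on chromosome 5. SAG14 (AT5G20230, chr5:6826365-6827748, plus strand of TAIR10.1) and DIN10 (AT5G20250, chr5:6833564-6836862, plus strand) lie on either side of 3 annotated genes, among them the floral organ identity gene PISTILLATA (PI, AT5G20240, chr5:6828904-6831515, plus strand). The gap from SAG14 to PI was 1155 bases and that from PI to DIN10 2048 bases. PI, whose product specifies petals and stamens, had a mean of 25.1 ± 4.35 FPKM on day 0 (SD, n = 3), 35.9 ± 2.22 FPKM at day 2 (n = 2), 106 ± 3.92 FPKM on day 4 (n = 3) and 140 ± 18.6 FPKM at day 8 (n = 3). FPKM is by definition the number of sequenced fragments scaled by transcript length and library size. The deposited FPKM columns shared a single distribution of values, however. A level here therefore follows the rank of the gene within its library and is not a plain scaled count. The means of PI thus differed most between days 2 and 4, whereas SAG14 and DIN10 had their largest difference between days 4 and 8.

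Promoter windows were read for all 10 genes from the RefSeq genome of build TAIR10.1, as the 250 bases before the annotated start of the gene. A small set of motifs was searched on both strands in each window, and they do not overlap one another in the windows shown. They were CACGTG (the G-box, a palindrome bound by bZIP and bHLH factors), ACTCAT (bound by the low-energy bZIP factors) and TATCCA (known from sugar-controlled promoters). Of 27437 protein-coding genes with such a window, 6.49% held CACGTG, 12.3% held ACTCAT and 13.6% held TATCCA. Among the 10 members, CACGTG was found in 2 (NAP and ASN1), TATCCA in 2 (SAG14 and ASN1) and ACTCAT in 0. ASN1 held both of the motifs found, and the windows of the other 7 genes held none of these letter strings.

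The windows of the 3 genes with a match are shown with the matches in capitals, and that of DIN10, the neighbour of SAG14, is shown as a window without one. They are chr3:17441432-17441681 (minus strand, ASN1), chr1:26121830-26122079 (plus strand, NAP), chr5:6826115-6826364 (plus strand, SAG14) and chr5:6833314-6833563 (plus strand, DIN10), each written 5′ to 3′ on the strand of its gene. The ASN1 window also covers part of AT3G47341, a gene annotated on the other strand.
ASN1: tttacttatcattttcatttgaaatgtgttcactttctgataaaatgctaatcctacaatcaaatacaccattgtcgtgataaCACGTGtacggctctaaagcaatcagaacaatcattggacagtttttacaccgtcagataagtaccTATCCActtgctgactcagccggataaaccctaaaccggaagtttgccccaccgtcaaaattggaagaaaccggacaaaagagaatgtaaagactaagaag
NAP: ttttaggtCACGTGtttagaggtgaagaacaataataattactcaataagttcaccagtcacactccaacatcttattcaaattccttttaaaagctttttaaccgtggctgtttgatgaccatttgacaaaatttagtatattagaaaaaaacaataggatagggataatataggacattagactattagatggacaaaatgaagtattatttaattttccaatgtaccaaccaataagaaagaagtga
SAG14: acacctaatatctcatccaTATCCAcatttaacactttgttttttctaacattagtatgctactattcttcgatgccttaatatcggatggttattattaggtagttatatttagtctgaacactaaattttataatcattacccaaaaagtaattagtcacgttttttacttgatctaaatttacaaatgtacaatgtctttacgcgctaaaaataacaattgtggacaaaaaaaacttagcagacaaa
DIN10: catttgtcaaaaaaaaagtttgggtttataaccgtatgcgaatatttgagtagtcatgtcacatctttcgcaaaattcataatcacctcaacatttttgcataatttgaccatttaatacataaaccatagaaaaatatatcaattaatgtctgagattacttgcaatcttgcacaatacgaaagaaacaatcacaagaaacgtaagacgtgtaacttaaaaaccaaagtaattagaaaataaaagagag

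Most of the 9 measured genes were low on the early days, while a pair of them was expressed throughout. ORE1, NAP, SAG13, ASN1 and SEN1 had day means of at most 1.86 FPKM on days 0 and 2. DIN10 started higher, at 11.9 ± 1.13 FPKM (SD, n = 3) on day 0, and SAG14 was the only member whose libraries stepped up from each sampling day to the next with no overlap. NYE1 and PAO, the chlorophyll breakdown enzymes, had day means of 3.70 to 7.97 and 19.3 to 35 FPKM. On day 8 SAG14 and SEN1 lay, on the mean of the 3 libraries, at percentiles 99.8 and 99 of the genes in the table.

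**Figure D1:**
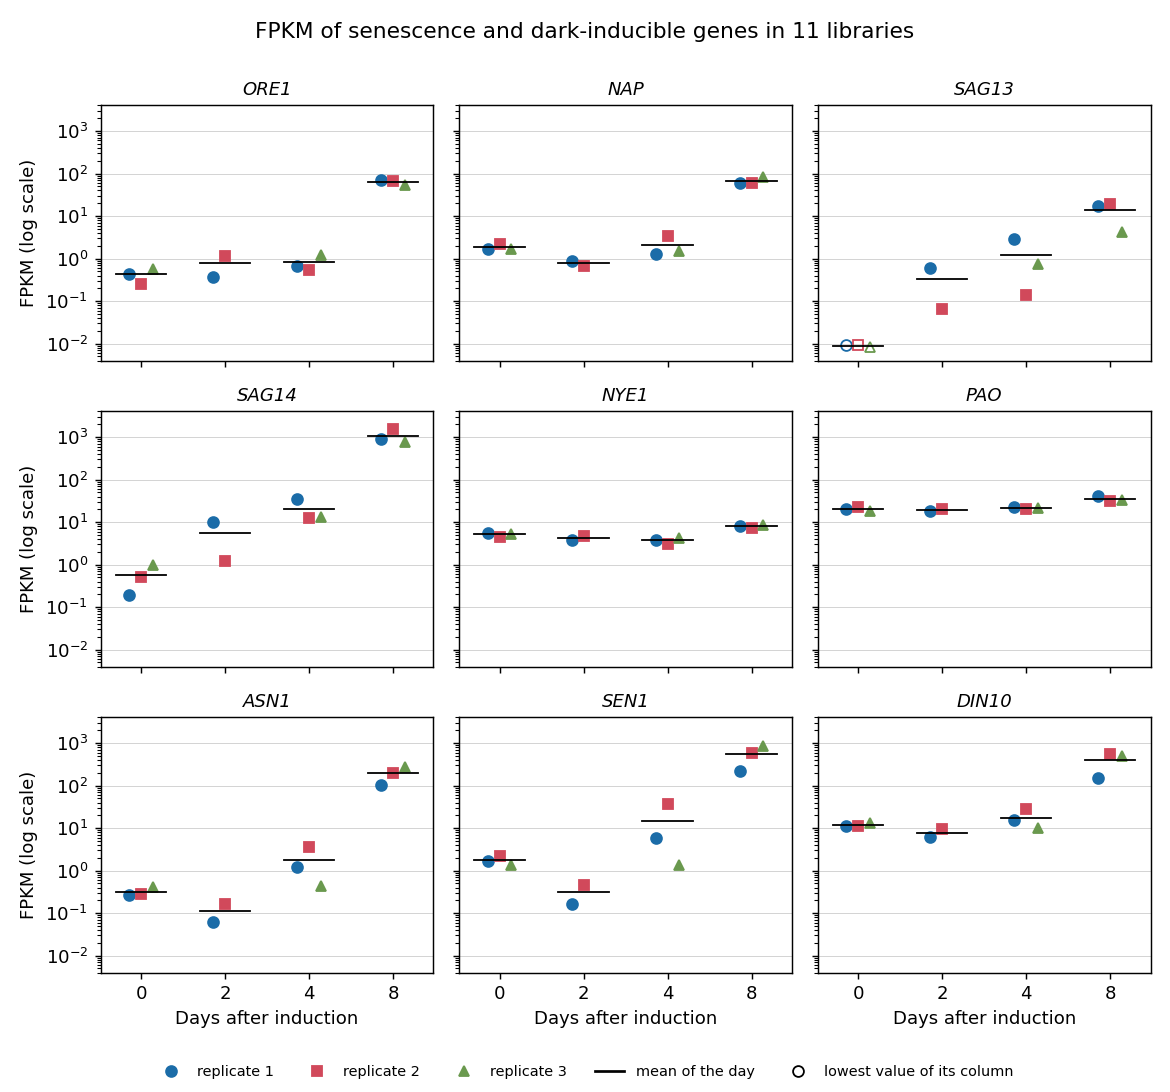
FPKM on a log axis against days after induction for the 9 measured genes, with 1 symbol per library (shape and colour give the replicate number), a bar at the mean of each day and open symbols where the value was the lowest of its column. In every panel the 3 day 8 libraries sit above the other 8, by a wide margin in 6 panels and narrowly for SAG13 (4.12 over 2.86 FPKM), NYE1 and PAO.

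ORE1 (AT5G39610) was measured at 0.442, 0.251 and 0.582 FPKM in the 3 libraries of day 0, at 0.365 and 1.17 on day 2, at 0.678, 0.526 and 1.24 on day 4 and at 69.7, 66.5 and 55.1 on day 8. The libraries of days 0, 2 and 4 overlapped, and those of day 8 were all far above them. The ratio of the day 8 mean to the day 4 mean was 78.2, and the change was 5.17 ± 0.20 (SE) in log2(FPKM + 1), the scale of every change given here, which understates changes of low genes. ORE1 also had one of the tightest sets of day 8 libraries among the members, with the highest 1.27 times the lowest.

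NAP (AT1G69490) was measured at 1.7, 2.2 and 1.69 FPKM on day 0, at 0.894 and 0.684 on day 2, at 1.3, 3.49 and 1.54 on day 4 and at 61.3, 59.1 and 85.0 on day 8. Both day 2 libraries were below all 3 of day 0, and day 4 overlapped day 0. Between days 4 and 8 the change was 4.53 ± 0.23. NAP and ORE1 had day 8 means of 68.5 ± 14.4 and 63.8 ± 7.70 FPKM (SD, n = 3), so the levels of these NAC genes overlapped on day 8.

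SAG13 (AT2G29350) stood at the lowest value of its column in all 3 day 0 libraries, a value that 776 to 821 genes shared, so day 0 gives no measured level and no fold against it. It was measured at 0.596 and 0.0664 FPKM on day 2, at 2.86, 0.143 and 0.729 on day 4 and at 17.7, 19.2 and 4.12 on day 8. The libraries of day 4 spread over a factor of 20.0, and on day 8 replicate 2 stood 4.66 times above replicate 3. From day 4 to day 8 the change was 2.66 ± 0.52, the smallest among the 7 members past 2-fold.

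SAG14 (AT5G20230) was measured at 0.195, 0.503 and 1.00 FPKM on day 0, at 9.97 and 1.19 on day 2, at 34.4, 12.2 and 12.9 on day 4 and at 897, 1570 and 774 on day 8. Neighbouring days did not overlap at any step, although the day 2 libraries differed by 8.39 times. The change from day 0 to day 4 was 3.61 ± 0.55, that from day 4 to day 8 was 5.79 ± 0.55, and that from day 0 to day 8 was 9.39 ± 0.55. The last placed SAG14 at rank 2 of 19278 genes by size of rise. Its day 8 mean of 1080 ± 426 FPKM (SD, n = 3) was the highest of the members.

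NYE1 (AT4G22920) was measured at 5.65, 4.43 and 5.28 FPKM on day 0, at 3.81 and 4.73 on day 2, at 3.88, 3.08 and 4.15 on day 4 and at 7.93, 7.26 and 8.73 on day 8. Days 0, 2 and 4 overlapped in turn and day 8 stood above them. From day 4 to day 8 the change was 0.94 ± 0.13, just under 2-fold in FPKM + 1, while the mean FPKM went from 3.70 to 7.97. With another pseudocount (0.1 or 0.000001), after rescaling by median ratios or without day 4 replicate 3 the same change came out past 2-fold, and over all settings it lay between 0.84 and 1.11.

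PAO (AT3G44880) was measured at 20.5, 22.1 and 18.2 FPKM on day 0, at 18.3 and 20.3 on day 2, at 22.2, 19.9 and 21.6 on day 4 and at 41.1, 31.1 and 32.9 on day 8. The first 3 sampling days overlapped and day 8 was higher in all 3 libraries. Day 8 differed from day 4 by 0.69 ± 0.11, or 1.65 times in mean FPKM, the smallest of the members.

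ASN1 (AT3G47340) was measured at 0.264, 0.275 and 0.408 FPKM on day 0, at 0.0618 and 0.161 on day 2, at 1.24, 3.68 and 0.446 on day 4 and at 101, 201 and 280 on day 8. The order of the days was 2, 0, 4 and 8, and no neighbours in that order overlapped, although day 4 replicate 3 was close to the highest library of day 0. The change from day 4 to day 8 was 6.18 ± 0.41, the largest of the members and rank 19 of 19278.

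SEN1 (AT4G35770) was measured at 1.73, 2.25 and 1.33 FPKM on day 0, at 0.162 and 0.468 on day 2, at 5.90, 37.1 and 1.35 on day 4 and at 215, 576 and 853 on day 8. Day 2 lay below all libraries of day 0, and day 4 replicate 3 was as low as day 0 while day 4 replicate 2 was 27.5 times higher. Between days 4 and 8 the change was 5.80 ± 0.81, and it moved to 6.88 without day 4 replicate 2 and to 4.87 without day 4 replicate 3.

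DIN10 (AT5G20250) was measured at 11, 11.4 and 13.1 FPKM on day 0, at 6.08 and 9.63 on day 2, at 15.4, 27.6 and 9.87 on day 4 and at 147, 541 and 488 on day 8. Day 2 was again the lowest, day 4 overlapped day 0, and day 8 replicate 1 was well below the other 2 libraries of that day. Day 8 differed from day 4 by 4.30 ± 0.46. As for NAP, PAO, ASN1 and SEN1, the order of the day means of DIN10 was 2, 0, 4 and 8. For PAO the libraries of days 2, 0 and 4 overlapped in turn.

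**Figure D2:**
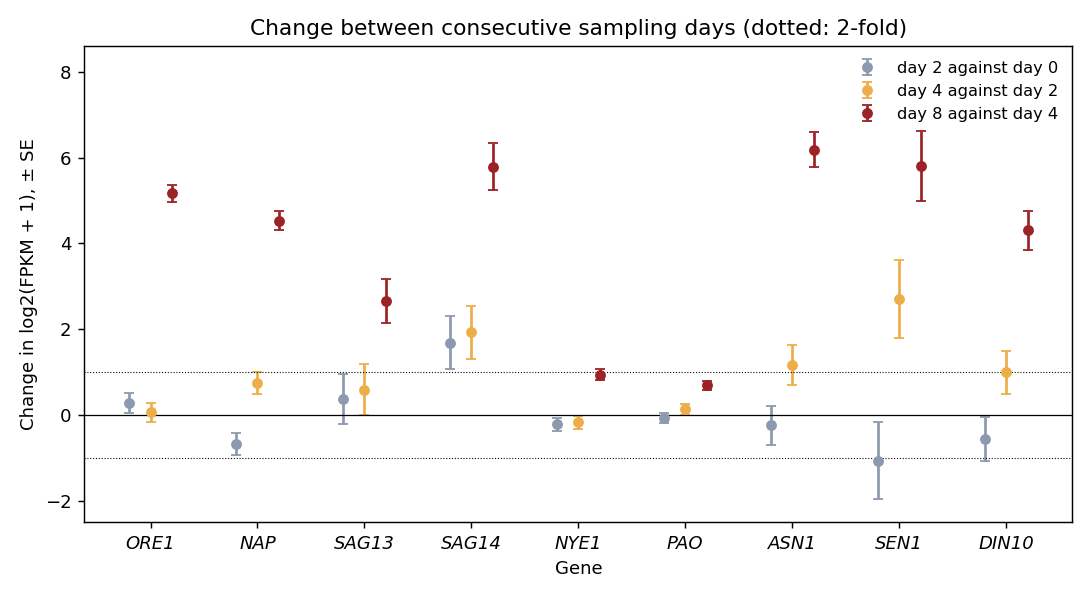
Change in log2(FPKM + 1) with its standard error between consecutive sampling days, for the 9 measured genes on the horizontal axis, with dotted lines at 2-fold. The change from day 4 to day 8 is above the other 2 for every gene, from 0.69 for PAO to 6.18 for ASN1.

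A gene was counted as called when limma's moderated test across all genes gave an adjusted p under 0.05 (Benjamini-Hochberg) and the change was at least 2-fold in FPKM + 1. Between days 4 and 8 the members past this rule were 7 of 9, all higher (all but NYE1 and PAO), where 12.5% of all genes tested were called higher and 11% lower. Between days 0 and 8 the count was again 7, all higher, beside 14.2% of all genes called higher and 15.2% lower. The 3 day 8 libraries were above all 8 others for 9 of 9 members, beside 23.9% of all genes. These members were chosen with such results known, and SAG13, which passed the filter only through day 8, had to differ. Nothing is therefore read from these counts.

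Between consecutive sampling days up to day 4 no member was past the rule in the main fit. The changes from day 0 to day 2 ran from -1.07 ± 0.90 for SEN1 to 1.68 ± 0.62 for SAG14, beside 0.244% of all genes called higher and 0.0934% lower. Those from day 2 to day 4 ran from -0.17 ± 0.15 for NYE1 to 2.70 ± 0.90 for SEN1, beside 0.301% called higher and 0.0674% lower. The main fit gave each gene a single variance, estimated from the libraries of all 4 days. For SEN1 the range of log2(FPKM + 1) was 0.48 on day 0 and 0.34 on day 2. It was 4.02 on day 4 and 1.98 on day 8, and these libraries also enter its ± 0.90. With only the days compared in the fit, SEN1 alone among the members was past the rule from day 0 to day 2. From day 0 to day 4, a comparison added after the values were seen, SAG14 alone was past the rule, beside 1.59% called higher and 0.617% lower. In an F test over the 4 days with a 2-fold minimum between the highest and lowest mean, 7 of 9 members were past the threshold, beside 32.8% of all genes. Nothing is read from that count either.

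All columns of the deposited table shared a single distribution of values, and the median change of all genes from day 4 to day 8 was -0.19. Rescaling the libraries by the median ratio to their geometric mean moved that median to -0.01. It also moved the higher share of all calls from 53.2% to 65.2% between days 4 and 8 and from 48.3% to 59.8% between days 0 and 8. The 7 members past the rule in both comparisons stayed past it under the rescaling and in each of the other 18 settings tried. The median change of the 9 members from day 4 to day 8 was 4.53.

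To place the members in their pathways, 4 companion lists were drawn up from general knowledge: senescence regulators, chlorophyll breakdown, dark and low-energy response, and SAG (senescence-associated gene) and nutrient recycling. Earlier results of these data were known when the lists were chosen, so their counts are a description and give no independent support for the members. The lists held 77 tested genes, of which 44 were called higher and 3 lower between days 4 and 8, beside 12.5% and 11% of all genes tested. Between days 0 and 8, 49 were called higher and 5 lower, beside 14.2% and 15.2%. In 50 of the 77 genes the 3 day 8 libraries were above all 8 others, which held for 23.9% of all genes. After the median-ratio rescaling the counts were 51 higher and 1 lower from day 4 to day 8, and 51 higher and 4 lower from day 0 to day 8, where 2816 and 1500, and 3210 and 2162, of the 19278 genes were called. Of the 77, 7 passed the filter on low values only through day 8 libraries (the regulators NAC055, ORS1 and WRKY75, the dark-response genes DIN2, DIN9 and DIN11, and RNS1). Those genes had to differ, so they add no support to the counts and their values are given without a p.

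Senescence regulators were higher on day 8 for the most part. Of 25 tested, 17 were called higher and 1 lower between days 4 and 8, beside 12.5% and 11% of all genes tested. Their median change was 1.72. The count and median take in NAC055, ORS1 and WRKY75, which passed the filter only through day 8. The largest changes were in NAC055, RD26 and NAC019, a trio of related NAC factors of the abscisic acid and jasmonate responses. RD26 rose by 6.28 ± 0.25 (adjusted p = 2.9e-08) and NAC019 by 6.21 ± 0.33 (adjusted p = 1.33e-07), while NAC055, which passed the filter only through day 8, had a change of 6.89 ± 0.23. RD26 was measured at 4.82, 5.18 and 4.08 FPKM on day 4 and at 486, 643 and 272 on day 8, with no overlap. WRKY53, an early regulator of leaf senescence, rose by 1.85 ± 0.12, and ORS1, a close relative of ORE1 that passed the filter only through day 8, had a change of 1.56 ± 0.16.

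The regulator called lower was GLK1, a factor that maintains chloroplasts and that ORE1 protein antagonises. GLK1 was measured at 30.2, 33.8 and 24.0 FPKM on day 0, at 15.6 and 20.0 on day 2, at 18.1, 9.94 and 18.8 on day 4 and at 2.17, 7.42 and 2.86 on day 8. It fell by 1.77 ± 0.34 between days 4 and 8 (adjusted p = 0.000709), while its paralogue GLK2 had a change of -0.13 ± 0.11. PIF4, a bHLH factor of light signalling, was called lower only against day 0, at -1 ± 0.22 (adjusted p = 0.00191), and this call was lost after rescaling and without day 0 replicate 1 or 2 or day 8 replicate 2 or 3. GLK1 mRNA on day 8 was highest in replicate 2, which was the highest library for 14 of 25 regulators (56%). The same held for 26.3% of all genes tested and for 59.9% of all genes called higher between days 4 and 8.

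Chlorophyll breakdown genes were divided. Of 11 tested, 3 were called higher and 1 lower between days 4 and 8, beside 12.5% and 11% of all genes tested. The median change was 0.37. CLH1, a chlorophyllase, rose by 3.42 ± 0.21 (adjusted p = 2.84e-07), NYE2, the paralogue of NYE1, by 1.71 ± 0.22 (adjusted p = 4.74e-05) and PPH, the pheophytinase that acts between NYE1 and PAO, by 1.22 ± 0.09 (adjusted p = 1.09e-06). HCAR, which turns chlorophyll b derivatives into chlorophyll a, fell by 1.09 ± 0.20 (adjusted p = 0.000654), and this call was lost after rescaling and without day 8 replicate 2. NYC1, a chlorophyll b reductase, had a change of 0.98 ± 0.12 and its relative NOL one of -0.76 ± 0.11, both short of 2-fold in FPKM + 1. The members NYE1 and PAO thus had smaller changes than NYE2 and PPH, a difference between genes that was not tested.

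Genes of green tissue were in part called lower on day 8. The summed level of 9 photosynthesis genes (small subunit of Rubisco, antenna proteins and others) was 9450 to 9770 FPKM on day 0, 5100 to 6560 on day 2, 9240 to 14500 on day 4 and 3570 to 4980 on day 8. Between days 4 and 8, 3 of the 9 were called lower, beside 11% of all genes tested. Between days 0 and 8, 5 of the 9 were called lower, beside 15.2% of all genes tested. The sum was carried mainly by RBCS1A and LHCB1.3. Because the deposited columns shared a single distribution, it follows the ranks of these genes among the highest of each library. RBCS1A, for example, stood at 4500, 3110 and 9740 FPKM in the 3 day 4 libraries. LHCA1 was not called, with 504, 630 and 513 FPKM on day 4 and 546, 513 and 777 on day 8. None of the 9 was at 0. Their part in the changes of the members was not tested.

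Genes of the dark and low-energy list were called in the higher direction alone from day 4 to day 8. Of 27 tested genes, 16 were called higher and 0 lower by limma, beside 12.5% and 11% of all genes tested. An unadjusted p under 0.05 was reached by 25, in either direction, and the median change was 1.86. These counts and the median take in DIN2, DIN9 and DIN11, which passed the filter only through day 8. DIN11, a dark-inducible dioxygenase that passed the filter only through day 8, was at 0.739, 0.293 and 0.116 FPKM on day 4 and at 264, 406 and 99.1 on day 8, a change of 7.34 ± 0.40. BCAT2, which starts the breakdown of branched-chain amino acids, rose by 5.20 ± 0.25 (adjusted p = 8.45e-08). PRODH1, the proline dehydrogenase, rose by 4.51 ± 0.59 (adjusted p = 4.7e-05). The later enzymes of the branched-chain route, MCCA and IVD, rose by 2.63 ± 0.23 and 2.1 ± 0.13. BZIP1, a bZIP factor that acts downstream of SnRK1 on ASN1, rose by 3.29 ± 0.18.

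The other asparagine synthetases were not called. ASN2 had a change of -0.55 ± 0.12 and ASN3 one of -0.92 ± 0.09 between days 4 and 8, both short of 2-fold in FPKM + 1. The catalytic subunits of SnRK1, KIN10 and KIN11, had changes of 0.14 ± 0.07 and 0.30 ± 0.15 (adjusted p = 0.103 and 0.0886). BZIP11, whose translation sucrose represses, was called lower against day 0, by a fall of 1.21 ± 0.15 (adjusted p = 2e-05).

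In the recycling list 8 of 14 genes were called higher and 1 lower between days 4 and 8, beside 12.5% and 11% of all genes tested. The median change was 1.53, and the count and median take in RNS1. SAG21, a late embryogenesis abundant-like protein, rose by 4.64 ± 0.45 (adjusted p = 6.14e-06) and YLS9, a gene of late leaf senescence and pathogen response, by 3.50 ± 0.52 (adjusted p = 0.000123). RNS1, a ribonuclease of phosphate starvation and senescence that passed the filter only through day 8, had a change of 3.40 ± 0.16. GLN1;1, a cytosolic glutamine synthetase, fell by 1.11 ± 0.17 (adjusted p = 0.00018), a call lost after rescaling and without day 4 replicate 3 or day 8 replicate 1. BFN1, a nuclease of senescence and cell death, had a change of -0.02 ± 0.25. SAG29 and CEP1 were not analysed here.

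**Figure D3:**
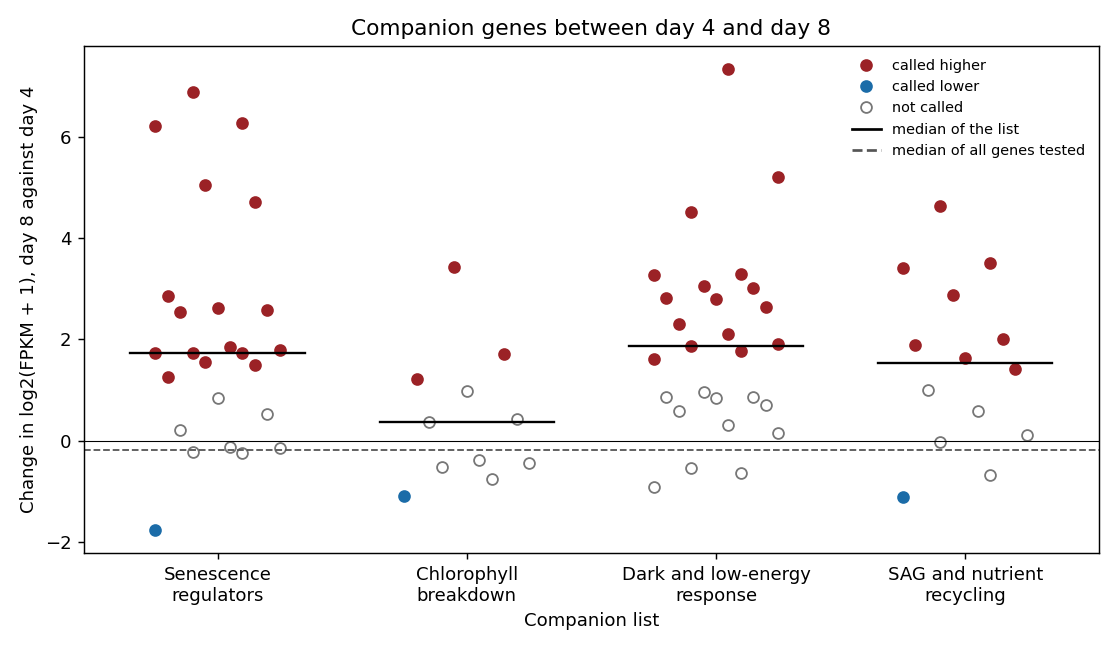
Change in log2(FPKM + 1) from day 4 to day 8 for each tested gene of the 4 companion lists (horizontal axis), filled where called (red higher, blue lower) and open where not, with the median of each list as a bar and the median of all genes tested as a dashed line. The medians of 3 lists lie at 1.53 to 1.86 and that of chlorophyll breakdown at 0.37, against -0.19 for all genes.

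Fewer companions were called before day 8. From day 0 to day 2, 0 of 77 were called by limma (13 had an unadjusted p under 0.05), and unmoderated tests called 0 as well. From day 2 to day 4 ABI5 alone was called, with a rise of 1.19 ± 0.19 (adjusted p = 0.0214), and the call was lost with unmoderated tests and without any 1 of the day 2 or day 4 libraries, and its highest adjusted p over all settings was 0.126. From day 0 to day 4, 7 of 77 were called, all higher, beside 1.59% of all genes called higher: ATAF1, WRKY54, ABI5, BCAT2, TPS8, DRM2 and SAG21. SAG21 had the largest of these changes, 3.46 ± 0.45 (adjusted p = 0.00112). That count fell to 3 without day 0 replicate 1 or 2 or without day 4 replicate 3, and to 4 without day 4 replicate 1.

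Several members differed strongly between libraries of the same day, above all on day 4. The range of log2(FPKM + 1) over the 3 day 4 libraries was 4.02 for SEN1, the third largest of 19278 genes, beside a median of 0.17 over all genes. For ASN1 it was 1.69, for DIN10 1.39, for SAG13 1.75 and for SAG14 1.42, which ranked 56, 97, 48 and 94 of all genes. PAO had a range of 0.15 on that day, under the median gene. On day 8 SAG13 and SEN1 each had a range of 1.98. ORE1, NYE1 and PAO had ranges of 0.33, 0.24 and 0.39 there, beside a median of 0.38 over all genes.

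These differences took separate directions in separate members. ASN1, SEN1, DIN10 and NAP were highest in day 4 replicate 2, whereas SAG13 and SAG14 were highest in day 4 replicate 1. On day 2, SAG13 and SAG14 were higher in replicate 1, and ASN1, SEN1 and DIN10 in replicate 2. NAP did not keep its day 4 grouping there, as it was higher in replicate 1 (0.894 FPKM) than in replicate 2 (0.684 FPKM). On day 8, SEN1 and DIN10 in replicate 1 were at least 2-fold below both other libraries, whereas SAG13 was lowest in replicate 3.

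Most companions of the dark and low-energy list had a library order much like that of the dark-inducible members. Day 4 replicate 2 was the highest library of its day for 22 of 27 genes (81.5%), beside 32.4% of all genes tested. DRM1 and DRM2, genes of dormant buds that low energy induces, were at 127, 563 and 167 and at 108, 589 and 150 FPKM in the 3 day 4 libraries. PRODH1 was at 24.1, 82.3 and 26.4 FPKM. For each of these genes replicate 2 was at least 2-fold above both other libraries. On day 2, replicate 1 was the lower library for 18 of 27 genes (66.7%), beside 54.4% of all genes. On day 8, replicate 1 was the lowest for 17 of 27 (63.0%), beside 31.8% of all genes, and PRODH1 had 302, 1650 and 1370 FPKM.

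The senescence regulators had a different order. Day 8 replicate 3 was their lowest library for 14 of 25 genes (56.0%), beside 26.1% of all genes tested and 63.3% of all genes called higher between days 4 and 8. This low place of day 8 replicate 3 was thus not particular to the regulators. Day 4 replicate 2, the highest library for the dark and low-energy genes, was the lowest for 14 of 25 regulators (56.0%), beside 35.3% of all genes.

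**Figure D4:**
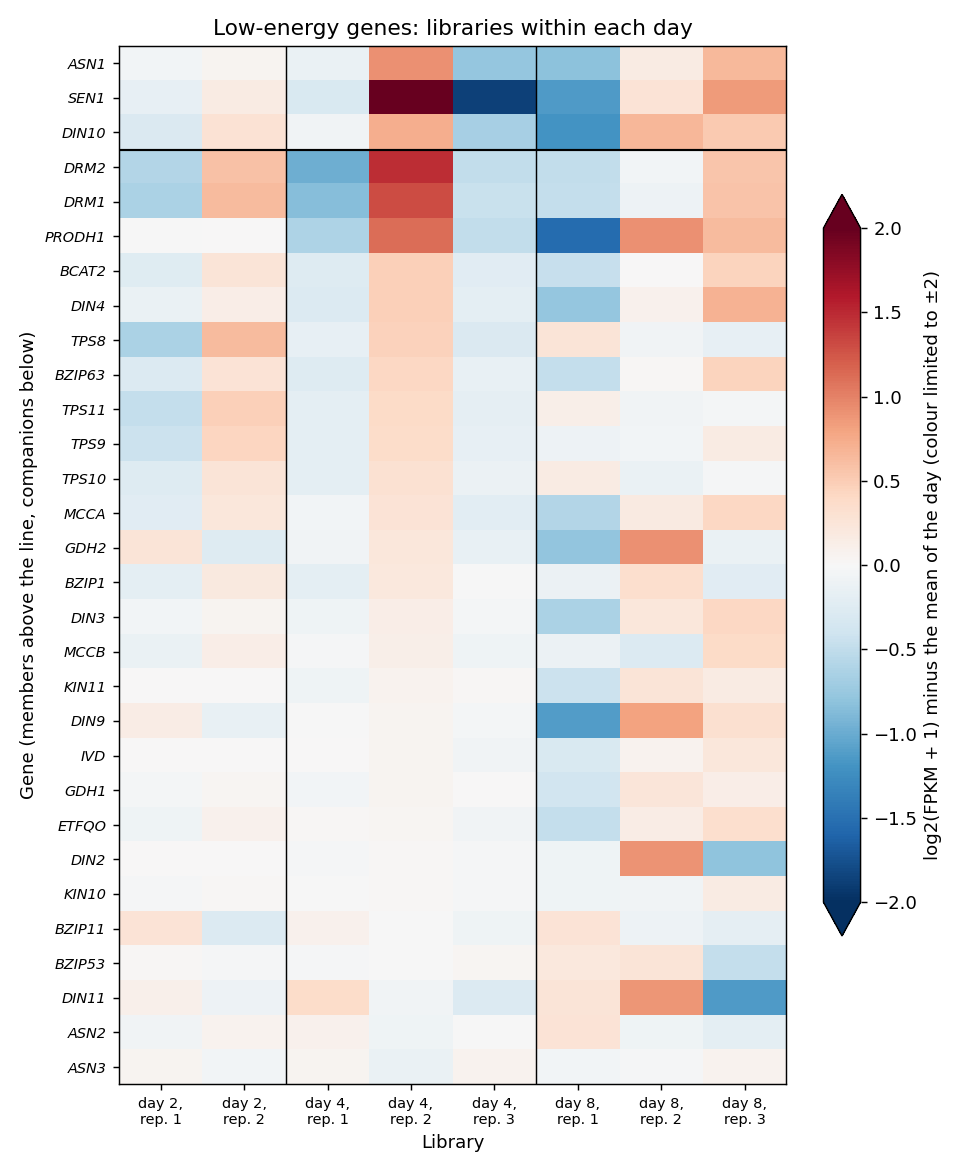
Heat map of log2(FPKM + 1) minus the mean of the day for ASN1, SEN1 and DIN10 (above the line) and the 27 dark and low-energy companions (below it, ordered by day 4 replicate 2) in the 8 libraries of days 2, 4 and 8, with red above and blue below the mean. Day 4 replicate 2 is the highest of its day in 22 of the 27 companions, and day 8 replicate 1 is the lowest of its day in 17.

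Among the members, the pairs ASN1 and DIN10 (r = 0.990) and ASN1 and NAP (r = 0.989) had the most alike patterns, and SAG14 and NYE1 (r = 0.645) the least. These are Pearson correlations of log2(FPKM + 1) over 11 libraries that share 4 days, and they mainly carry the step at day 8. The genes of the whole table most like each member, by the same measure, are given as a description. SAG21 was nearest to SAG14 (r = 0.998), and its FPKM of 8.62 and 1.37 on day 2 and of 22.3, 12.8 and 12.3 on day 4 were, as for SAG14, highest in replicate 1 on both days, although replicates 2 and 3 of day 4 stood in the other order. The second was the lectin gene AT3G16530 (r = 0.993). For ASN1 the nearest were TRE1, the trehalase, and AT1G07040 (both r = 0.997), and for DIN10 AT1G26270 (r = 0.994) and MCCA (r = 0.993), which is also a companion gene.

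The other members had neighbours outside the lists. COL1 (r = 0.997) and BGLU10 (r = 0.996) were nearest to ORE1, and OPT4 and MYBL2 (both r = 0.994) to NAP. ARCK1 (r = 0.988) and CYP79B2 (r = 0.983) were nearest to SAG13, RGLG4 (r = 0.961) and MYB3 (r = 0.952) to NYE1, AT3G21670 (r = 0.981) and ABCC4 (r = 0.980) to PAO, and AT2G31810 (r = 0.987) and EMF1 (r = 0.986) to SEN1.

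Marker genes of the labelled tissue were present. The 6 meristem and flower markers had a summed level of 198 to 224 FPKM on day 0, 282 to 305 at day 2, 436 to 441 on day 4 and 297 to 385 at day 8. LFY and AP3 were called higher against day 0, and STM, which maintains the shoot meristem, was called lower between days 4 and 8, from 116, 120 and 122 to 36.9, 33.2 and 53.8 FPKM. AP3, a petal and stamen identity gene, stood at the lowest value of its column in day 0 replicate 2. Of 7 tapetum markers (the tapetum is the nurse tissue of pollen, which degenerates as anthers mature), 5 were not analysed here, and the other 2, TDF1 and AMS, summed to at most 1.40 FPKM in any library. None of 5 xylem and 2 phloem markers was called between days 4 and 8, at unadjusted p under 0.05 for 1 and 1 of them. Their summed levels overlapped between those days for xylem (23.5 to 28.7 and 19.6 to 35.5 FPKM), while phloem stood at 20.3 to 27.1 and 17.1 to 19.1 FPKM. Libraries of day 8 differed more from each other than those of other days (pooled SD 0.338 in log2, beside 0.159 to 0.230), and within each day the libraries correlated at r = 0.964 to 0.994, taken over genes, which are no replicates.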

How the data were processed

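Per the submitters' processing notes, the authors used STAR as aligner, RSEM (version 1.2.22) for quantification and TAIR10 as genome, on reads from stranded total RNA libraries. The deposited table holds FPKM per gene and library, the authors' day means, and the p-value and FDR of the authors' own test over days, which were left out. The deposited FPKM columns had a common distribution (totals 734615 to 734624), so they carry no depth, which is unknown.

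Here FPKM was transformed as log2(FPKM + 1), a gene needed 1 FPKM or more in at least 2 libraries, and limma version 3.58.1 in R version 4.3.3 was fitted to all 11 libraries with the 4 days as groups, a variance trend and 7 residual degrees of freedom. P-values were adjusted by Benjamini-Hochberg over all genes within a comparison, and they measure the spread between pooled libraries. The fit was tested on simulated data. Companion genes were named as the 3 called genes with the largest rise and the 3 with the largest fall per list and comparison, and others were named after their values were seen. All members and lists were chosen with earlier results of these data known. The comparison of day 4 with day 0 was added after the values were seen. Alternatives changed the pseudocount, filter, scaling, moderation, library weights, block and libraries used. Gene starts and motifs were read from the RefSeq genome of TAIR10.1.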

Additional observations from a re-analysis of the deposited data

How the results depend on the processing

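Each of the 7 members past the rule between days 4 and 8, and between days 0 and 8, kept it in 19 of 19 alternative settings. No direction reversed among these members or the called companions named for the largest changes. Direction was not followed for other genes. For the members, SAG13 included, this is a description and no test, since they were chosen with the results known. Counts of early calls depended on the settings. Over all genes, day 2 against day 0 gave 65 calls, and 98 with a pseudocount of 0.1, 8 with unmoderated tests, 115 with library weights, 106 with only the days compared and 19 to 94 without single libraries. Day 4 against day 2 gave 71, and 31 unmoderated, 124 with weights and 28 to 120 without single libraries. Day 4 against day 0 gave 426, and 647 with a pseudocount of 0.1. Among companions, day 4 against day 2 gave 1, and 2 with a pseudocount of 0.1 or 0.000001, 0 unmoderated, 3 with weights and 0 to 2 without single libraries. Companions in day 4 against day 0 gave 7, and 3 unmoderated and 3 to 7 without single libraries. Companions in day 2 against day 0 gave 0, and 1 with only the days compared and 0 to 1 without single libraries. Members past the rule numbered 2 in place of 1 in day 4 against day 0 with a pseudocount of 0.000001, and 1 in place of 0 in day 2 against day 0 with only the days compared (SEN1). The cause of these shifts was not tested.

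Same-numbered libraries of different days did not deviate together strongly (correlations -0.251 to 0.132 over 15 pairs, 2 over 0.1). With 2 or 3 libraries per day, these values cannot show whether same-numbered libraries were handled together. The main fit did not pair them. With the replicate number as a block, day 2 against day 0 gave 25 calls over all genes and 1 among companions, and no other count moved by over 1.5 times. Dropping a library from day 2 leaves 1 there, which is then assumed to vary like those of the other days.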
